A study of Mus musculus with 2 samples.

Results

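LSD1 binding was examined at 8 genes of the interferon regulatory factor (IRF) family, Irf1, Irf2, Irf3, Irf4, Irf5, Irf7, Irf8 and Irf9, which were chosen by name. They are 8 of 21853 protein-coding genes, and 16 of the 59175 LSD1 peaks of the study lay at them. A peak was taken as lying at a gene when at least 1 bp of it fell within 1 kb of any protein-coding transcript start of that gene (a promoter peak), or between 10 kb upstream of the gene and the gene end (a nearby peak). LSD1, encoded by Kdm1a, is a histone lysine demethylase that acts within corepressor complexes. Its sites were profiled by ChIP-seq, in which antibody-bound chromatin is sequenced, in primary brown adipocytes of C57BL/6 N mice with the genotype label Control, at passage 2 to 3. The cells were grown on collagen in high-glucose medium with 20% serum. At confluence they received T3 (1 nM), insulin (850 nM), indomethacin (125 nM), rosiglitazone (1 µM), dexamethasone (1 µM) and isobutylmethylxanthine (500 µM), and after 10 days in adipogenic medium they were fixed for 5 min. The 2 libraries are an immunoprecipitate made with a homemade LSD1 antibody and an input made without antibody from cells of the same description. Only the peak list was analysed, so each value below comes from 1 library, has no replicate error and carries no test. How many animals or cultures the cells came from is not stated in the labels.

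The IRF proteins share an amino-terminal DNA-binding domain that recognises GAAA-containing elements of interferon and interferon-induced promoters. IRF3, IRF5 and IRF7 are activated by phosphorylation downstream of pattern recognition receptors and switch on interferon genes. IRF9 joins STAT proteins in the complex through which type I interferon acts on its targets. IRF1 activates and IRF2 mostly represses an overlapping set of promoters, while IRF4 and IRF8 direct the development of lymphoid and myeloid cells. In fat, IRF4 is known as a fasting-induced activator of lipolysis genes and as a partner of the coactivator PGC-1α in thermogenesis.

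The promoters of the family differed in their content of CG pairs, and the members with fewer of them had the family's lowest promoter score or no LSD1 peak. The sequences shown are the 300 bases from 250 before to 50 after a RefSeq start (GRCm38.p6, the same chromosomes as mm10) for the members with the highest and the lowest promoter score and for those without a peak, with every CG pair in capitals. Irf5 (chr6:29526375-29526674, plus strand) had the highest promoter score and holds 35 CG pairs in this window. Irf4 (chr13:30748983-30749282, plus strand) had the lowest and holds 11. Irf7 (chr7:141266375-141266674, minus strand) and Irf9 (chr14:55603735-55604034, plus strand) had no peak and hold 7 and 9. The median over all 32851 RefSeq promoter windows is 7 (quartiles 3 and 20), so the windows of Irf7 and Irf9 are not poor in CG pairs by this measure. A second RefSeq start of Irf9 (chr14:55604329-55604628) has 1 CG pair in its window.
Irf5: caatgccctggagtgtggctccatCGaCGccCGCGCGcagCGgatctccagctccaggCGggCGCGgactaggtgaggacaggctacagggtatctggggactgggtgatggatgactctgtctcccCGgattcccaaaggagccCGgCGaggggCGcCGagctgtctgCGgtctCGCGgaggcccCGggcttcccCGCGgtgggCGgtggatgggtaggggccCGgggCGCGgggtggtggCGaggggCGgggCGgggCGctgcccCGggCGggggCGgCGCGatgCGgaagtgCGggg
Irf4: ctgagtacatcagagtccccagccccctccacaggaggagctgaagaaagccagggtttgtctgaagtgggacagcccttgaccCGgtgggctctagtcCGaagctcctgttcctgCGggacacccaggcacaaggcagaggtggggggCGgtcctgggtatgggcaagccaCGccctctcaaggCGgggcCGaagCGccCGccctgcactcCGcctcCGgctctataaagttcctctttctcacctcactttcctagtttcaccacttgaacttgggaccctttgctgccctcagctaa
Irf7: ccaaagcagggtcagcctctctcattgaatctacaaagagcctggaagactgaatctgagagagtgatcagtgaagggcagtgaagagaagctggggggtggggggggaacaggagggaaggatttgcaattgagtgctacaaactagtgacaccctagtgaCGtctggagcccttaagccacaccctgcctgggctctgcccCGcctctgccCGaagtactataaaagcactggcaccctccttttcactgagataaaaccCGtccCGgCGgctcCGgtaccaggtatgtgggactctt
Irf9: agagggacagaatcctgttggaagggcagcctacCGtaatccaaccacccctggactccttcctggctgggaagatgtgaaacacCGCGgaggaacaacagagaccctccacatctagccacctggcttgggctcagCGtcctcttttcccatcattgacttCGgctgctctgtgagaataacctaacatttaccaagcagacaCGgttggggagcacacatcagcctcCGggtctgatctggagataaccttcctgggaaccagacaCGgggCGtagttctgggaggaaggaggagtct

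Irf8 (chr8:120736108-120736407, plus strand) was added after its values were seen, because it had the narrowest of the high-scoring promoter peaks. Its window holds 38 CG pairs, 3 more than that of Irf5.
Irf8: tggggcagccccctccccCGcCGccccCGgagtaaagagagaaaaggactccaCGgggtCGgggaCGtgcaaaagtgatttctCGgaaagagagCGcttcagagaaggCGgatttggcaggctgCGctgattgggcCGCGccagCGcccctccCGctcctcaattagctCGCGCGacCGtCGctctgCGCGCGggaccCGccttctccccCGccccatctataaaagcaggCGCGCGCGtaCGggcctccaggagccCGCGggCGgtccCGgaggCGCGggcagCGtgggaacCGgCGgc

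A promoter peak was present at 6 of the 8 members, and the same 6 had a nearby peak. Over all protein-coding genes 55.8% had a promoter peak and 69.8% a nearby peak, so 6 of 8 is close to the background of nearby peaks. Promoter peaks with a score of 500 or more were found at 4 members, Irf1, Irf3, Irf5 and Irf8, against 16.8% of all genes. The 16.8% is not matched for promoter CpG content, with which scores rise. These members lie in CpG deciles 7, 8 and 10 of all genes. The upper score quartiles of occupied genes there were 596, 614 and 724. Scores are values that the authors deposited with the peaks, on a scale that no source used here gives. They serve to rank peaks within the list. The highest promoter score per member was 836 at Irf5, 716 at Irf8, 622 at Irf1, 592 at Irf3, 397 at Irf2 and 111 at Irf4. The median of these, 607, lay above the median of 315 (quartiles 156 and 570) over all 12199 genes with a promoter peak. At Irf4 the score stayed below that median, and at the other 5 it was above.

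**Figure D1:**
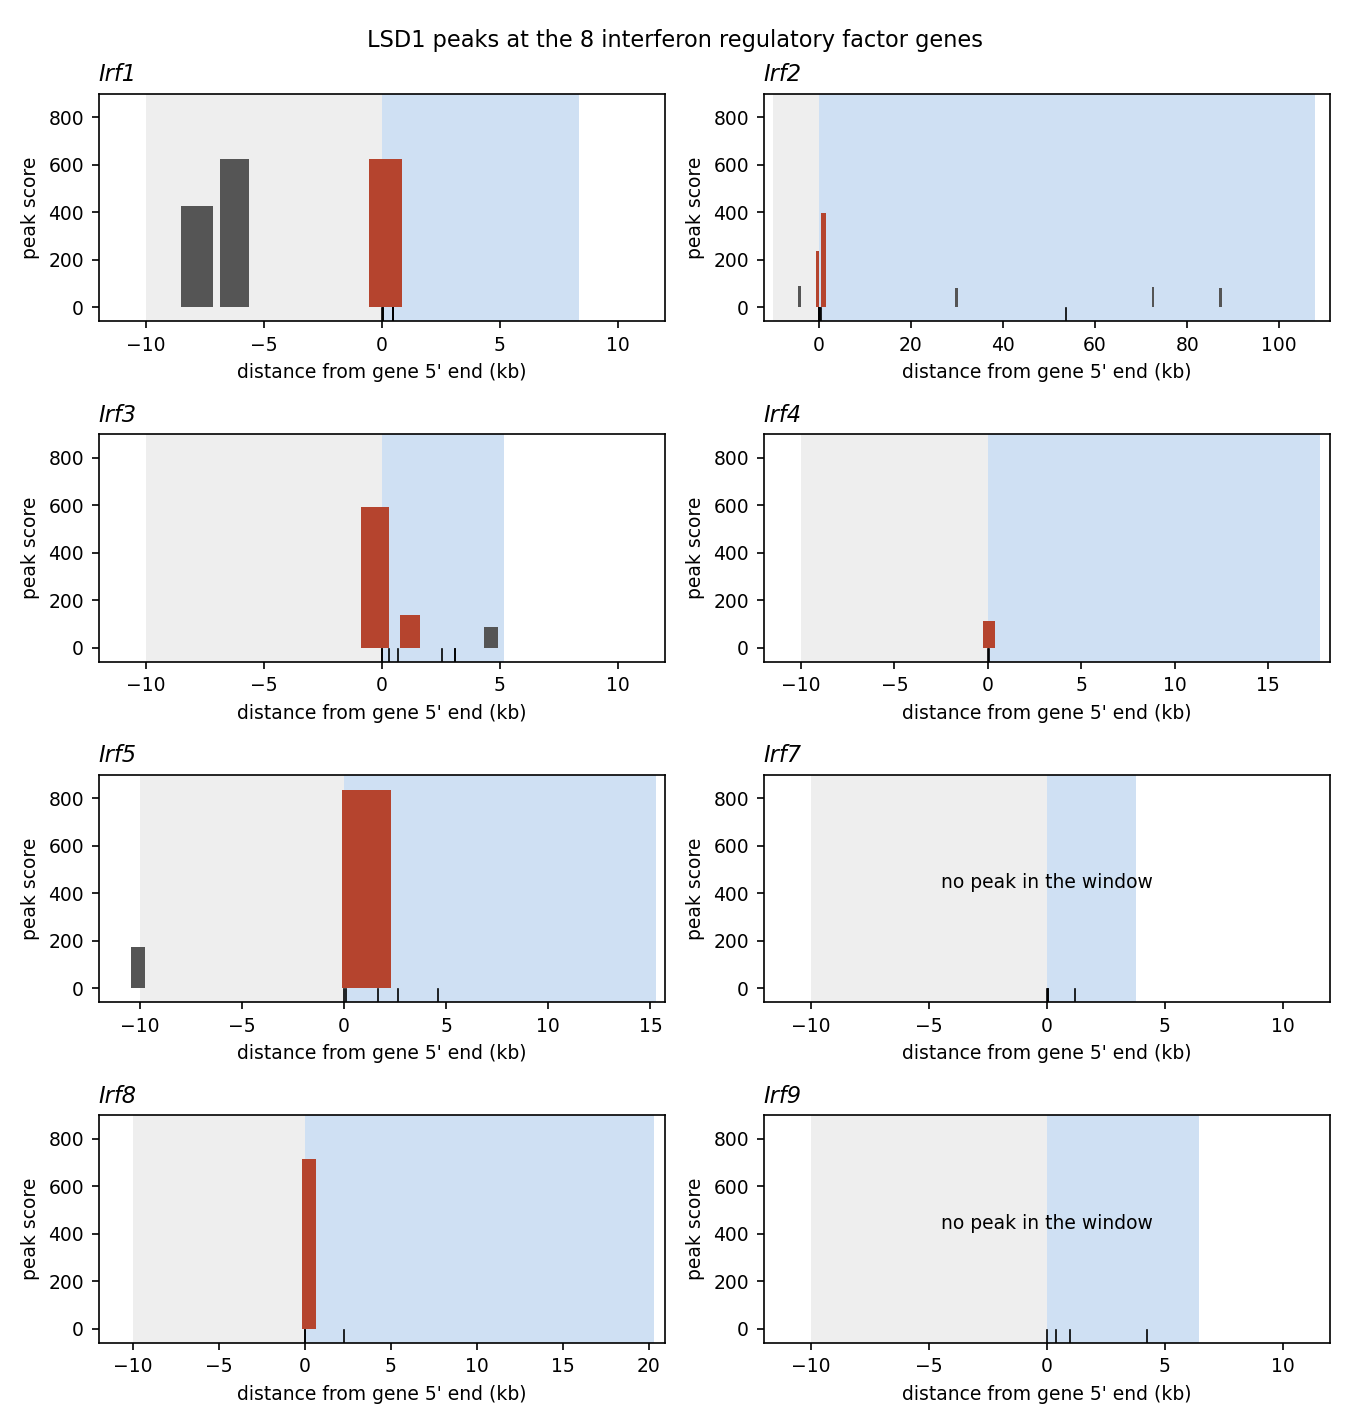
LSD1 peaks along each of the 8 genes, drawn in the direction of transcription. Bars show peaks at their true width with the deposited score as height, in red for promoter peaks and in grey otherwise; ticks below 0 mark protein-coding starts, grey shading the 10 kb upstream and blue shading the gene. Peaks gather at the starts, Irf1 has a pair of tall peaks upstream, and Irf7 and Irf9 have none; the horizontal scale differs between panels.

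Irf3, the constitutively present factor that is phosphorylated by TBK1 (chr7:44997648-45002848, plus strand, 7 starts), had 3 peaks. The highest, chr7:44996749-44997940, was 1192 bp wide with a score of 592 and covered the starts of 2 of its 7 protein-coding transcripts. This peak also covered a start of Bcl2l12, a BCL2-family gene on the opposite strand, and its midpoint lay at -91 bp from that start and at -304 bp from the 5′ end of Irf3. The peak can therefore be assigned to either gene. A further promoter peak at chr7:44998400-44999262 scored 139. Its midpoint was 505 bp past the nearest Irf3 start, and it also touched a promoter region of Bcl2l12. The third lay in a coding exon near the gene end, at chr7:45001993-45002582, with a score of 88.7. The innermost starts of Irf3, 3085 and 3100 bp from its 5′ end, had no peak within 1 kb.

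Irf5, which acts downstream of Toll-like receptors in macrophages (chr6:29526625-29541871, plus strand, 5 starts), carried the highest and widest peak of the family. It spanned chr6:29526531-29528915, 2385 bp with a score of 836, and covered 3 of the 5 starts, those at 0, 83 and 1645 bp from the 5′ end. The score was above 90.9% of all peaks with the midpoint at a promoter. Among the 178 peaks within 5% of its width the median score was higher, 930, and 33.7% of them scored lower than the Irf5 peak. A second peak, chr6:29516217-29516912 (score 173), reached into the 10 kb window by its edge only. Its midpoint lay at -10061 bp from Irf5, and the nearest start was that of Kcp.

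Irf7, the inducible factor that amplifies the interferon response (chr7:141262706-141266481, minus strand, 4 starts), had no peak in its window. The nearest peaks were weak and lay outside, with gaps to the gene of 27358 bp upstream (score 65.9, in a coding exon nearest to Drd4) and 23355 bp downstream (score 96.3, in an intron nearest to Phrf1). Irf9, the DNA-binding subunit of the interferon-activated STAT complex (chr14:55603571-55610030, plus strand, 4 starts), had none in its window either. Just outside it, 11360 bp upstream of the gene, a wide peak (chr14:55590409-55592211, 1803 bp, score 676) lay over the promoter of Psme2, a subunit of the interferon-inducible proteasome activator. Counting 20 kb upstream would give Irf9 this peak and a further one nearest to Emc9 (chr14:55584899-55585695, score 175).

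Irf1 (chr11:53770014-53778374, plus strand, 7 starts), an early interferon-γ target and activator, had 3 peaks that were all high. The promoter peak, chr11:53769466-53770880 (1415 bp, score 622), covered all 7 starts, which lie within 495 bp. The other peaks were intergenic, at chr11:53763173-53764368 (1196 bp, score 624.5) and chr11:53761492-53762870 (1379 bp, score 425), with midpoints at -6244 and -7833 bp from the 5′ end. Their scores were above 98.9% and 97.2% of all peaks away from promoters, whose median score was 102 and median width 603 bp. Among peaks within 5% of its width, 86.5% scored lower than the nearer peak. For the farther peak this was 45.0%, and its score lay below the median of 452 for its width. The nearer upstream peak was as high as the promoter peak itself, and Irf1 was the nearest protein-coding gene start for both upstream peaks. Their CpG ratios, observed over expected, were 0.427 and 0.118, against 0.827 in the promoter peak. A weaker peak (score 119) followed just beyond the window, at -10917 bp.

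Irf2, the repressor counterpart of IRF1 and the longest gene of the family (chr8:46739732-46847458, plus strand), had 6 peaks. A pair of promoter peaks lay around its main group of starts. The upstream peak, chr8:46739097-46739781, was 685 bp wide with a score of 235 and covered 2 of the 6 starts. The downstream peak, chr8:46740267-46741361, was 1095 bp wide with a score of 397 and began 1 bp after the start at 534 bp. The noncoding gene Gm16675, annotated as a bidirectional promoter lncRNA on the minus strand, overlaps the midpoint of the upstream peak. The remaining peaks were a peak in an intron of Gm16675 at -4225 bp (score 89.8) and 3 peaks in introns of Irf2 with scores of 80.5, 86.6 and 79.7. All 4 scored below the 102 that is the median away from promoters. A late start of Irf2, 53767 bp into the gene, had no peak nearer than 18558 bp. With 2 promoter peaks, Irf2 and Irf3 were among the 13.6% of all genes with 2 or more.

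Irf4 (chr13:30749226-30766976, plus strand) had 1 peak, chr13:30748986-30749591, 606 bp wide with a score of 111. It covered both annotated starts, used by 3 transcripts, with the midpoint 62 bp from the 5′ end. The score was just under the median of 111.3 of the whole list and above 31.1% of the occupied promoters with similar CpG content. Of the peaks within 5% of its width, 82.0% scored lower, and their median was 86.4. No other peak lay within 24364 bp upstream or 14799 bp downstream of the gene. Irf8 (chr8:120736358-120756694, plus strand), a close relative of Irf4, also had 1 peak, chr8:120736196-120737015, but with a score of 716 in only 820 bp. Of 3535 peaks within 5% of this width, 99.9% scored lower, and their median was 160. This peak covered the starts of 3 of 4 transcripts, while the start 2281 bp into the gene was free of peaks. The nearest other peaks of Irf8 lay 39289 bp upstream and 39003 bp downstream.

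**Figure D2:**
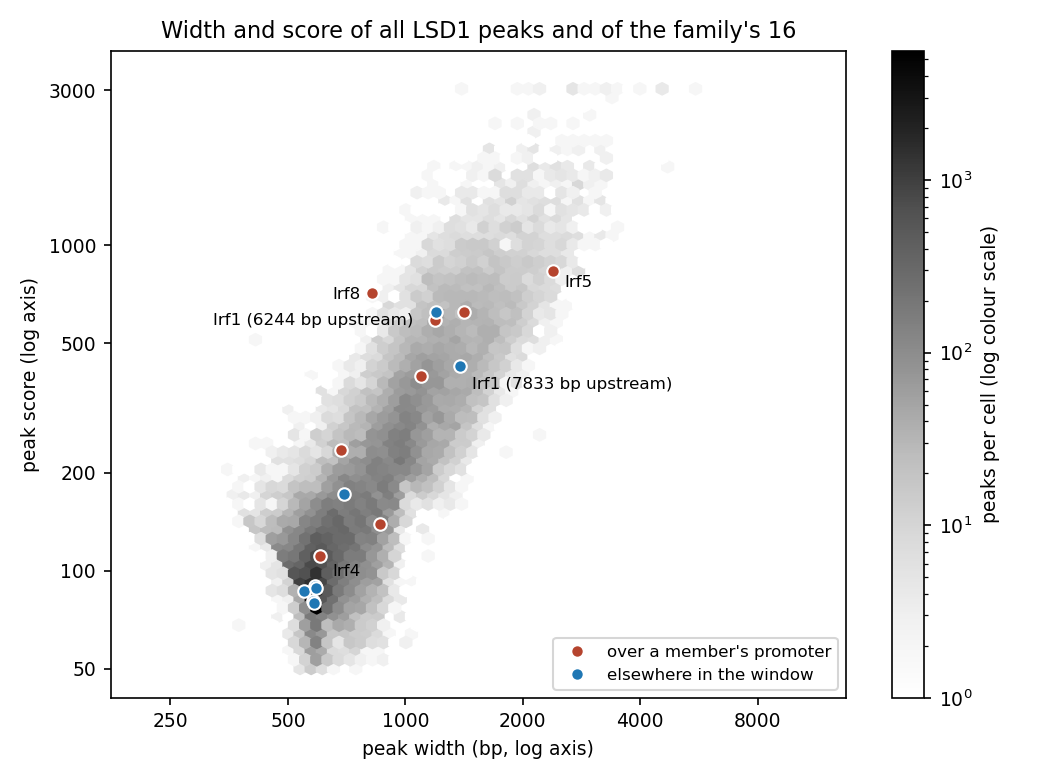
Width (horizontal, bp) and score (vertical) of the 59175 peaks, both on log axes, with the number of peaks as grey shade and the 16 peaks of the family as points. The Irf8 promoter peak stands at the upper edge of the cloud for its width of 820 bp, and the wide Irf5 peak lies inside it.

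Over the family, the 8 promoter peaks had a median score of 494 (range 111 to 836) and a median width of 979 bp. The other 8 peaks had a median score of 89.2 (range 79.7 to 624.5) and a median width of 588 bp. For all peaks these medians were 248 and 933 bp at promoters, and 102 and 603 bp elsewhere. By midpoint, 8 of the 16 peaks lay at promoters, 4 in introns, 3 between genes and 1 in a coding exon. The highest 10% of all scores, from 391 upwards, included 7 of the 16, 5 of them promoter peaks and 2 the upstream peaks of Irf1.

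Occupancy within the family followed promoter CpG content, measured as the ratio of observed to expected CpG over 1 kb centred on a start, at the start where it is highest. Irf1 was in the highest decile of all genes (ratio 0.957), where 93.4% of genes had a promoter peak. Irf2 (0.826) and Irf5 (0.787) were in decile 8, with 88.0% occupied, and Irf3 (0.739) and Irf8 (0.737) in decile 7, with 84.3%. Irf4 (0.365), Irf7 (0.344) and Irf9 (0.327) were all in decile 4, where 33.8% were occupied. The shares of these deciles add up to 5.39 genes, beside the 6 observed. Within their deciles, 5 of the 6 occupied members scored above the median of occupied genes, Irf5 above 87.3% of them, Irf8 above 83.2%, Irf3 above 74.7%, Irf1 above 68.1% and Irf2 above 53.6%. The members also have more starts than most genes, a median of 4.5 against 2, and each further start adds a place where a peak counts. Of all genes with 4 or more starts 78.5% had a promoter peak, and of the 6 members with 4 or more starts 4 had one. With the gene's 5′ end as the only start the same number of members, 6, had a promoter peak, against 52.3% of all genes.

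**Figure D3:**
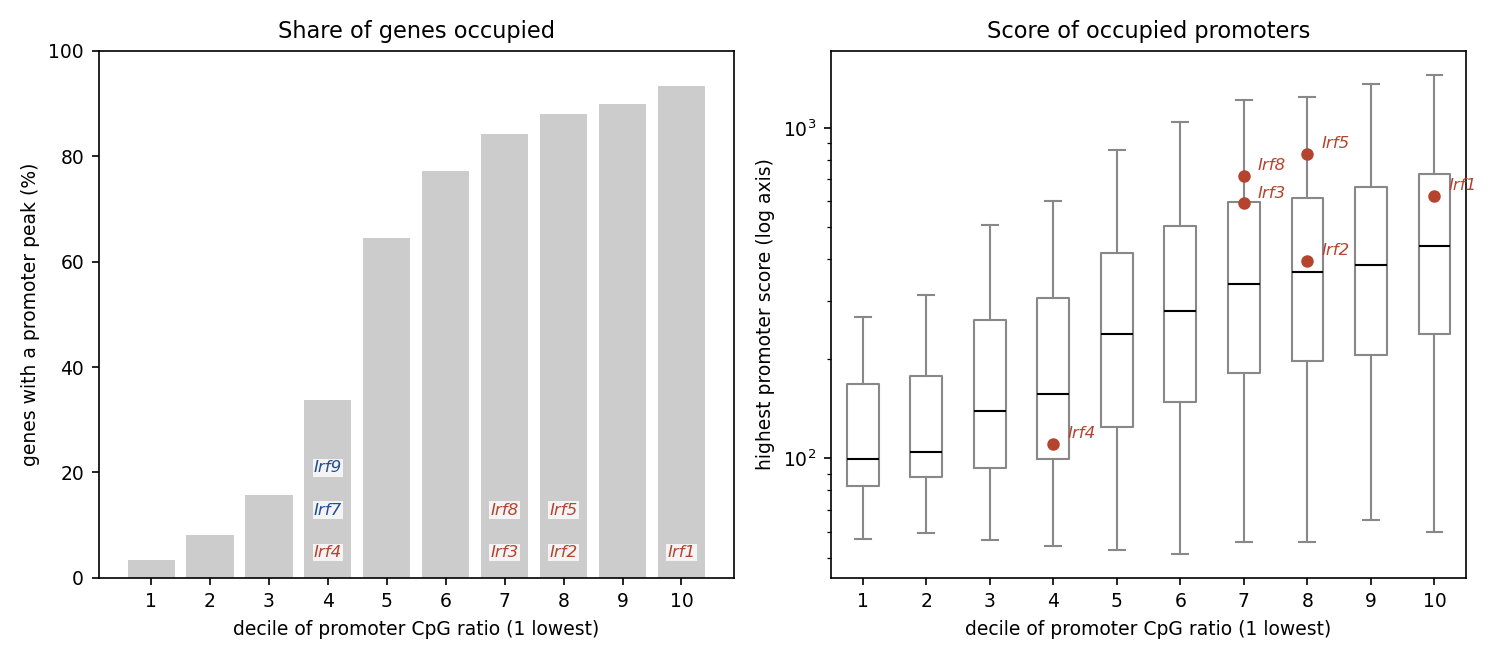
Left, share of protein-coding genes with a promoter peak (bars, %) in each decile of promoter CpG ratio, with the members named in their decile, red where occupied and blue where not. Right, highest promoter score of occupied genes on a log axis (box, quartiles with median; whiskers, range without outlying genes), with the 6 occupied members as points; all but Irf4 lie above the median of their decile.

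Letters of IRF, STAT, NF-kB, AP-1, ETS, Sp1, C/EBP and CTCF elements were searched in the reference sequence of peaks and promoters on both strands. The interferon response element GAAANNGAAA occurred in 1 of the 16 peaks, the upstream promoter peak of Irf2, and in 9.48% of all peaks. The same stretch also holds the ETS-IRF composite element GGAANNGAAA (7.36% of all peaks), which overlaps it, and TTCNNNGAA, the STAT-binding GAS element. The shorter IRF core AANNGAAA, which is part of GAAANNGAAA, was found in 8 of 16 peaks and in 54.6% of all. GAS elements were found in 7 of 16 (21% of all) and NF-kB elements in 8 of 16 (17.1% of all). Sp1 letters were found in 10 of 16 (28.3% of all), C/EBP in 4 (27.9%) and AP-1 in 1 (26.0%). ETS and CTCF letters were found in 0 (2.54% and 1.76% of all). The family's peaks are wider than the list, with a median of 758 against 628 bp, which gives more room for matches. In the 300 bp around the midpoints GAS was found in 3 of 16 (9.01% of all) and NF-kB in 1 of 16 (7.07% of all). Matches are descriptions of letters and show no binding.

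In the 300-base promoter windows, 11 in all for the 8 members, the GAS element was present at Irf1, Irf2 and Irf8, against 9.55% of all genes with such windows. GAAANNGAAA was present at Irf2 alone, against 3.99% of all genes, and the Sp1 box GGGCGG at 7 of 8 members, against 38.2%. GGGCGG itself holds a CG pair, and most member windows have more CG pairs than the median window. The 38.2% is not matched for CG content. The stretches that hold GAS elements are shown because STATs, the relay of interferon signals, bind such elements. They were chosen after their matches were seen, with GAAANNGAAA and TTCNNNGAA in capitals. At Irf2 the stretch runs from -250 to -202 relative to the RefSeq start (0 being the start base), at Irf8 from -181 to -132 and at Irf1 from -100 to -51. In Irf1 the GAS element is followed by an NF-kB element at -13, and in Irf2 by one at -17. NF-kB elements were in the windows of these 2 of the 8 members, against 9.55% of all genes. The stretch of Irf1 lies inside its promoter peak, as does that of Irf2. At Irf8 the upstream copy, TTCTCGGAA at -171, lies just before the peak, and the copy TTCAGAGAA at -153 lies within it.
Irf2: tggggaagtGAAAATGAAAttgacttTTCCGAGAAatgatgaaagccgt
Irf8: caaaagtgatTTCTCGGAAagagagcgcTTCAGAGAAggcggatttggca
Irf1: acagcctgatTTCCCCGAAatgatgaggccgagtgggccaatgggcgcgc

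Around the family, genes of interferon signalling were listed by role, and the 82 matched genes of 83 entries were set beside the 55.8% of all genes that had a promoter peak. All 11 interferon receptor and JAK-STAT relay genes had a promoter peak, where the shares of their CpG deciles add up to 8.66. The highest scores included those at Jak1 (583), a kinase of interferon receptors, and Ifngr1 (572), a subunit of the interferon-γ receptor. Sensors, adaptors and kinases upstream of the IRFs had 15 of 20, against 10.7 from the deciles. Myd88 (1151), the Toll-like receptor adaptor, Mavs (883), the mitochondrial adaptor of RNA sensors, and Irak4 (703), a kinase bound by MYD88, scored highest. The endosomal receptor genes Tlr7, on chromosome X, which holds only 273 peaks, and Tlr9 had no promoter peak. Among the interferon genes themselves 1 of 6 had a promoter peak, against 0.983 from the deciles, namely Ifnb1 (95.9), a direct target of IRF3, while Ifna2 and Ifna4 had none.

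Interferon-stimulated genes, the targets of the family, had a promoter peak in 23 of 35 cases, where the deciles add up to 12.1. Adar (900.5), an RNA-editing enzyme, Socs1 (706), an inhibitor of JAK kinases, and Igtp (464), an interferon-induced GTPase, scored highest, while the antiviral genes Mx1 and Oas2 had none. Tap1 and Psmb9 share 1 peak over a common promoter, so the 23 genes are not independent. Partners and cofactors of the IRFs had 5 of 10, against 6.28. Irf2bp2 (1192) and Irf2bpl (595), of the IRF2-binding protein family, and Ep300 (501), a histone acetyltransferase, scored highest. Spi1 and Spib, the lymphoid and myeloid ETS factors that bind DNA together with IRF4 and IRF8, had none. The number of starts was not held equal in these sums. Among the highest 10% of scores, where 22.8% of all genes had a promoter peak, the receptor list had 2 of 11, the sensor list 3 of 20 and the interferon-stimulated genes 5 of 35, all below that share. The 22.8% is not matched for CpG content, with which scores rise. In CpG decile 4, the median decile of the interferon-stimulated list, 33.8% of genes were occupied. Their upper score quartile was 305, below the limit of 391, so the raw share is no fair measure for that list.

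**Figure D4:**
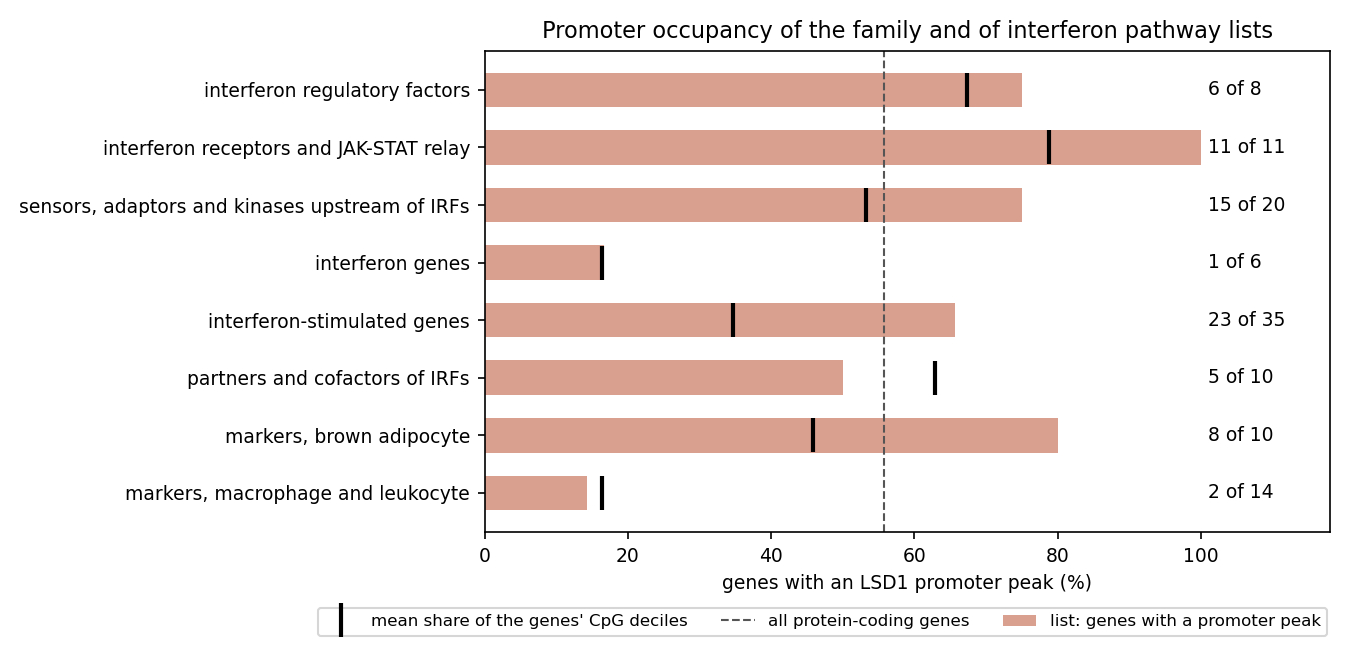
Share of genes with an LSD1 promoter peak (bars, %, with counts at the right) in the family, in the pathway lists and in the marker lists. Vertical strokes mark the mean share of the genes' CpG deciles, and the dashed line marks 55.8% of all protein-coding genes; the bars of the receptor, sensor, interferon-stimulated and brown adipocyte lists pass their strokes most, and the family lies closer to its own.

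The labelled cell type cannot be checked by expression, since the data hold peaks only. Of 10 brown adipocyte markers 8 had a promoter peak (4.59 from the deciles), Ucp1 and Dio2 having none, and of 14 macrophage and leukocyte markers 2 had one, Cd68 and Cd14 (2.30 from the deciles). Several members are best known from immune cells, and whether other cells contributed to their peaks was not tested.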

How the data were processed

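An LSD1 immunoprecipitate and an input library were sequenced (HiSeq 2000). Per the labels' protocols, Bowtie2 aligned the reads to mm10. Per the submitters' processing notes, MACS 1.41 was among the tools. The authors deposited 1 peak list with a score per peak. How the score is scaled, the peak threshold, read filters and the use of the input library are not given in the sources used here. Depth is unknown. Coordinates count the first base as 1.

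Starts were those of protein-coding transcripts of protein-coding genes on chromosomes 1 to 19, X and Y of GENCODE M21, and sequence came from GRCm38.p6. CpG deciles rank all genes. Peaks of similar width are those within 5%. The gene list entry Mx2 matched no protein-coding gene. Motifs were exact consensus letters. Promoter windows are those of RefSeq (GRCm38.p6), matched by symbol for all 8 members. The 8 members, the lists and the rules were chosen with earlier results of these data known. All members were named, with the 3 highest-scoring genes and the first 2 without a promoter peak of each pathway list, except for items that are not reported here. Overlap calls were tested on simulated peaks against bedtools 2.31.1. Alternatives are given in the closing section. Python 3.11.15, pandas 2.3.3 and pysam 0.24.0 were used.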

Additional observations from a re-analysis of the deposited data

How the results depend on the processing

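The number of members with a promoter peak was 6 with promoters of 500 bp and of 2.5 kb, with midpoints required inside, with basic transcripts only and, chosen after seeing the data, with the gene's 5′ end alone, against 53.7%, 59.1%, 54.1%, 55.1% and 52.3% of all genes in this order. It was 5, Irf4 being lost, among peaks at or above the median score (47.3% of all genes) and in the highest 10% of scores (22.8% of all genes). The highest promoter score of each member did not change with promoters of 500 bp or 2.5 kb, and the median over the occupied members was 607, or 622 under both stricter score limits. A nearby peak was found at 5 to 7 members under the alternatives, 7 with 20 kb upstream. The share of all genes was computed only for 10 kb upstream with all peaks (69.8%). These other counts therefore cannot be set against all genes. The number of peaks at the family was 16. It was 10 with peaks at or above the median score and 7 in the highest 10%, and between 13 and 22 with other windows or assignments. With 3 GAAA copies in place of 2, the interferon response element was found in 0 of the family's 16 peaks and in 0.333% of all peaks. At so low a share, 0 of 16 does not set the family apart. In the highest 10% of scores, beside 22.8% of all genes, the receptor and JAK-STAT list had 2 of 11 occupied promoters, the sensor list 3 of 20, the interferon genes 0 of 6, the interferon-stimulated genes 5 of 35 and the partners 5 of 10. The shares of the first 4 lists lie below that of all genes at this limit, unlike those of the receptor, sensor and interferon-stimulated lists with all peaks. CpG content was not held equal at this limit, so the change cannot be told apart from the lists' CpG content. The interferon genes had 0 at or above the median score and 2 with promoters of 2.5 kb. Counts are small, depth is unknown, and no result here has a replicate. No paired analysis was possible because the series has 1 immunoprecipitate.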

Other observations

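Among CpG-poor promoters, those of the 4 lowest deciles of CpG ratio, 15.3% of all 8741 genes had an LSD1 peak. Of the 24 interferon-stimulated genes in these deciles 15 had one, of the 9 sensor, adaptor and kinase genes 5, of the 6 interferon genes 1 and of the 4 partners 1. Brown adipocyte markers had a share as high as the interferon-stimulated genes, 4 of 6. The interferon-stimulated genes included the neighbours Ifit1 (182), Ifit2 (329), Ifit3 (205) and Ifit3b (234), which bind viral RNA, and Isg15 (198), a ubiquitin-like modifier, with the highest promoter score in parentheses. These genes were chosen after their values were seen. Of the 14 macrophage and leukocyte markers, all in the same deciles, 2 had a promoter peak, and of the 3 IRF members there, Irf4, Irf7 and Irf9, 1 had one. The difference between these groups was not tested.

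Ikbke, the gene of a kinase that phosphorylates IRF3 and IRF7, had 4 promoter peaks. Its CpG ratio lies in decile 1, where 3.48% of genes had at least 1. Over all genes 13.6% had 2 or more, and the share with 4 was not computed. The number of starts was not held equal in these shares. Promoter peaks are counted over all protein-coding starts of a gene, so the 4 need not lie at a single start. The highest of these scored 147. Ikbke was chosen after its values were seen.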
